A study of Homo sapiens with 2 samples.

Results

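CpG positions in the coding exons of human autosomal genes, outside CpG islands and outside annotated promoters, were described in SH-SY5Y cells given DMSO or Mdivi-1. A position entered when the deposited table annotated it as exonic, placed it in no island and in no promoter, and gave it at least 10 reads in each library. Of 2773807 positions in the table, 173904 met these conditions, and 173367 of them were used because whole methylated reads could be recovered there. The 173904 positions lay in 12326 genes, of which 7964 held at least 5 positions under the rule and 7959 held at least 5 usable ones. Exonic positions in the table exclude untranslated regions and exons of noncoding RNA, which have annotation terms of their own.

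SH-SY5Y is an established neuroblastoma cell line of sympathoadrenal character. Mdivi-1 is a compound used to reduce mitochondrial fission, originally through the dynamin-related GTPase that DNM1L encodes, and DMSO is its solvent. Each treatment was represented by 1 bisulfite library of captured genomic DNA, and dose and exposure time are not given in the sources used here. No difference below therefore has a replicate check, and the errors given cover the counting of reads only, which may include PCR copies of the same molecule.

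In mammalian cells most CpGs are methylated, while CpG islands at active promoters are kept free of methylation. Inside transcribed genes, the histone mark that SETD2 places on elongating chromatin recruits the DNA methyltransferase DNMT3B, and exons of such genes are typically heavily methylated. In cultured and tumour cells, genes that are not transcribed often lie in domains that have lost part of their methylation, whereas key developmental regulators can carry long unmethylated stretches that reach into their coding sequence.

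Coding exon CpGs outside islands were heavily methylated in both libraries, and the Mdivi-1 library was slightly higher. Mean methylation was 70.8% in the control and 71.5% after Mdivi-1, so 0.650 percentage points higher (counting error 0.0177 points with CpGs taken as independent). Of the CpGs, 50.5% were higher and 42.1% lower in the Mdivi-1 library. Mean coverage was 41.0 reads in the control and 50.5 reads after Mdivi-1. CpGs under 10% had a share of 14.1% in the control and 14.0% after Mdivi-1, and CpGs over 90% a share of 48.2% and 51.9%, values that also depend on depth. The root mean square difference of single CpGs was 7.64 points, against 7.37 points from read counting alone.

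The difference had the same direction in each part of the exonic CpGs. Those in island shores were at 65.7% and 66.3%, those in shelves at 72.3% and 72.9%, and those outside islands, shores and shelves at 72.9% and 73.6%. By chromosome the Mdivi-1 library was higher on all 22 autosomes, by 0.411 points on chromosome 9 at the least and by 0.911 points on chromosome 18 at the most, where 850 CpGs were measured. The control level ranged from 59.8% on chromosome 18 to 78.2% on chromosome 22. Introns outside islands and promoters were lower in level, at 58.8% and 59.5%, with a difference of 0.687 points. The 3' untranslated regions outside islands stood at 69.0% and 69.9%, and coding exons inside islands at 54.4% and 54.9%.

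Methylation of coding exons was low near the promoter and high beyond it. Distance was taken to the nearest CpG that the table places in the promoter of the same gene. Exonic CpGs less than 2 kb away averaged 47.3% in the control and 47.9% after Mdivi-1. At 2 to 5 kb the control level was already 74.2%, and at 10 to 20 kb it was 78.4%, the highest class. Beyond 100 kb it was 74.8%. Introns followed the same course at a lower level, from 31.6% within 2 kb to 68.4% at 10 to 20 kb. The libraries differed by 0.539 points within 2 kb and by 0.813 points at 50 to 100 kb, the smallest and largest differences of the exonic classes.

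**Figure D1:**
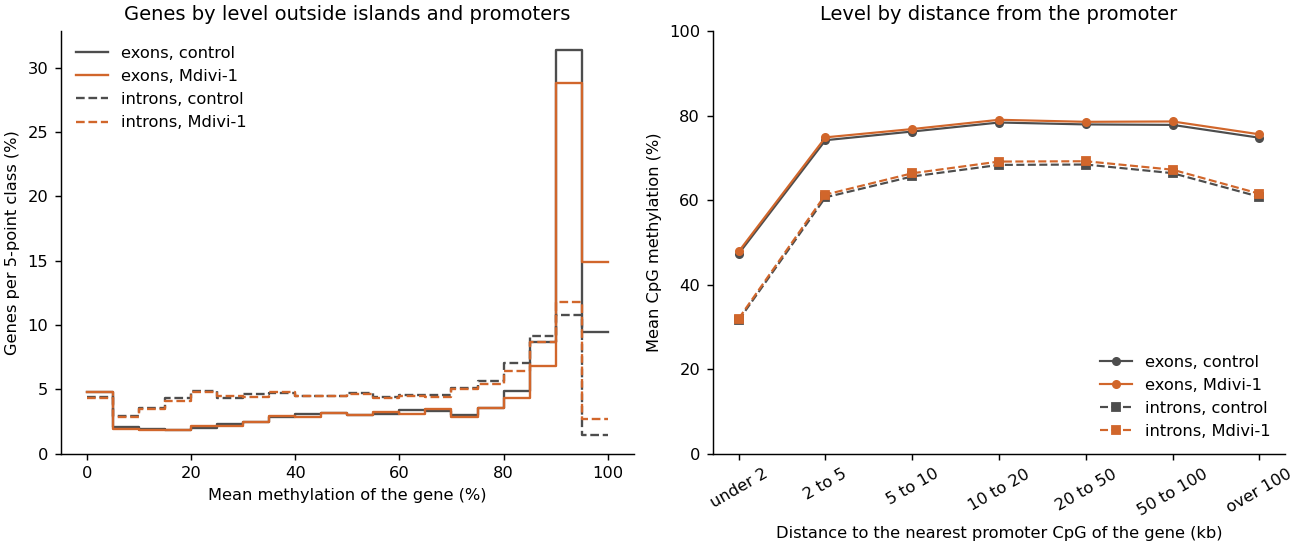
Left, percent of genes in each 5-point class of mean methylation (%) for coding exons (solid) and introns (dashed) outside islands and promoters, in the control (grey) and Mdivi-1 (orange) libraries; right, mean CpG methylation (%) by distance in kb to the nearest promoter CpG of the gene, with lines joining classes. Exons gather above 90% and lie above introns at every distance, and the libraries nearly coincide.

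Exons stood above the introns of the same gene. Among 6552 genes with at least 5 CpGs of each kind, exons averaged 70.8% and introns 57.6% in the control, a gap of 13.1 points with an SD of 23.4 points over genes and a median of 10.1 points. Exons were the higher of the pair in 5104 genes (77.9%) in the control and in 5085 genes (77.6%) in the Mdivi-1 library, where the gap was also 13.1 points. In 441 genes the exons were at least 50 points above the introns, and in 77 they were at least 50 points below. With shores and shelves left out of both kinds the control gap was 7.63 points. Across genes, which are not independent replicates, exon and intron levels correlated with a Pearson r of 0.652. The differences between libraries correlated with an r of 0.0304. Differences of single CpGs, at 7.64 points in root mean square, were close to the 7.37 points from read counting alone. Counting noise lowers a correlation of differences, so this r does not show whether exons and introns differed together. Against the 3' untranslated region of the same gene the gap was 2.51 points over 1767 genes, and against the gene's own exonic islands it was 18.3 points over 2998 genes. The median gap to the exonic islands was only 2.04 points, with an SD of 43.3 points. Exons were above their islands in 56.5% of these genes, and by at least 50 points in 735 of them.

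Gene levels spread over the whole range, with many genes near full methylation. The median gene level was 84.6% in the control and 85.6% after Mdivi-1. In both libraries 3145 genes (39.5%) were above 90% and 512 genes (6.43%) were below 10%. The mean of both libraries lay between 20 and 80% in 2785 genes (34.99%). Over genes, the 2 libraries had a Pearson r of 0.996.

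High exon levels were found in groups of mitochondrial dynamics, DNA methylation and axon guidance. The 28 gene groups described here are given by the number of members with at least 5 exonic CpGs. Mitophagy genes, which mark and remove damaged mitochondria, had a median control level of 93.6% over 11 genes, with a lowest member of 78.0%. Antioxidant genes had a median of 93.5% over 11 genes, and DNA methylation enzymes and readers 92.3% over 13. Within the latter DNMT3L, the catalytically inactive partner of the de novo enzymes in germ cells, stood far below the maintenance enzyme DNMT1, at 29.95% against 94.1%. Genes of mitochondrial fission had a median of 91.3% over 7 genes and those of fusion and cristae 90.9% over 7. Semaphorins and plexins, ligands and receptors of axon guidance, had a median of 91.0% over 23 genes. Zinc finger genes named ZNF had a median of 91.7% over 117 genes, and clustered protocadherins, which give neurons their surface identity and are largely single-exon variable regions, 91.8% over 49 genes.

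The lowest group medians were those of olfactory receptors, histone genes and keratins. Olfactory receptors, single-exon genes of the nasal epithelium, had a median of 9.94% over 77 genes, and 35 of them were below 10% in both libraries. The others of 279 receptor genes with any such CpG had fewer than 5. Only 1.35% of the CpGs of these receptors lay in shores. Histone genes had a median of 10.2% over 11 genes, with 70.05% of their CpGs in shores and members from 0.175% to 96.8%. A high shore share did not go with a low level in every group. Clustered protocadherins had 74.7% of their CpGs in shores at a median of 91.8%. Keratins and keratin-associated proteins, the filament proteins of skin and hair, had a median of 19.6% over 36 genes. Mucins had 33.9% over 13 genes, HOX genes 37.3% over 30, cytochrome P450 genes 40.3% over 23 and collagens 42.6% over 33. Ribosomal proteins had 44.7%, over only 6 genes. Potassium channels, at 50.7% over 56 genes, and glutamate and GABA receptors, at 52.6% over 30, were intermediate. Members of the channel group ranged from 7.47% to 94.97% and those of the receptor group from 0.332% to 95.6%. The median of all genes was 84.6%, as given above.

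Lineage regulators of sympathoadrenal cells were split between unmethylated and methylated exons. Of 15 adrenergic core regulators with enough CpGs, 6 were below 10% in both libraries. They are named here after their values were seen: HAND1 at 0.531%, SOX11 at 0.995%, PHOX2A at 1.17%, MEIS2 at 1.499%, GATA3 at 3.56% and ISL1 at 6.42% in the control, all transcription factors. MYCN, a driver oncogene of neuroblastoma, was at 84.8% and 86.2%, and ALK, a receptor kinase of the same tumour, at 94.9% and 94.8%. Among catecholamine genes, DBH, which makes noradrenaline from dopamine, was at 1.13% and 0.890% over 16 CpGs. TH, the rate-limiting enzyme of the pathway, was at 76.9% and 78.1% over 26 CpGs. These levels say nothing of transcript levels, which were not analysed here.

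**Figure D2:**
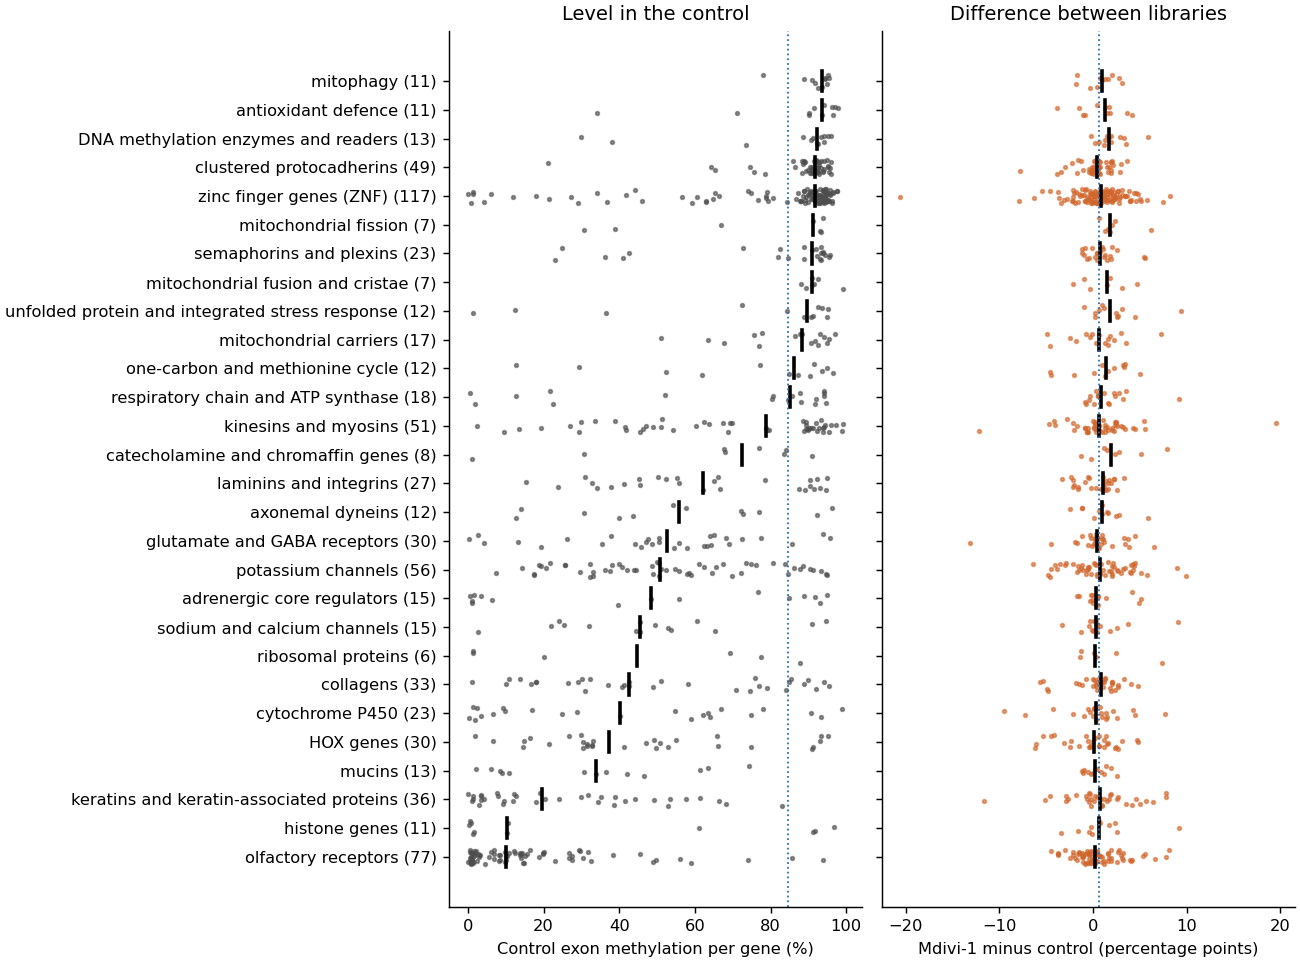
Left, control methylation (%) of coding exon CpGs outside islands for each gene (points) of 28 groups, with the number of genes in parentheses; right, the difference Mdivi-1 minus control in percentage points. Black bars are group medians and dotted lines the medians of all 7959 genes (84.6% and 0.649 points). Groups differ widely in level, from a median of 9.94% to 93.6%, and group medians of the difference all lie between 0 and 2 points.

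Between libraries most genes differed little. The median gene difference was 0.649 points, with an SD of 2.76 points over genes and a range from -23.3 to 27.0 points. The Mdivi-1 library was higher in 5019 genes (63.1%) and lower in 2938, with 2 genes equal. After subtraction of the median difference of all autosomal gene and annotation sets of like level, 4022 genes (50.5%) were higher and 3936 lower. Of all genes, 93.1% differed by less than 5 points and 37.1% by less than 1 point. The median difference was 0.124 points in the 385 genes below 5%, 0.656 points in the 992 genes at 40 to 60% and 0.987 points in the 935 genes at 80 to 90%. It was 0.498 points in the 818 genes at 95% or more. Introns of like level had medians of 0.0825, 0.606, 1.03 and 0.519 points in the same classes.

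Gene groups are described by their counts and medians, to be read against the 63.1% of genes higher and the median of 0.649 points over all genes. No group was tested. Genes of mitochondrial fission were all higher in the Mdivi-1 library, 7 of 7, with a median of 1.81 points. GDAP1, an outer membrane fission factor, was at 30.7% and 37.0%, FIS1 at 39.0% and 40.5%, INF2, an actin nucleator at fission sites, at 66.8% and 68.8%, and MIEF2, a receptor of the fission GTPase, at 91.3% and 93.6%. PGAM5 was at 93.0% and 94.3%, the receptor MFF at 93.2% and 95.05% and AKAP1 at 93.8% and 94.4%. The differences of GDAP1, MIEF2 and INF2 were 6.24, 2.39 and 2.01 points. Their counting errors were 2.24, 1.77 and 1.27 points if CpGs are independent, and shared reads would widen them. Of the 25 CpGs of MIEF2, 12 were higher and 10 lower. With all reads of a gene pooled the median of the group was 0.809 points with 6 of 7 higher, and after centring by level 6 of 7 were higher. DNM1L itself had no position of this kind: its 8 exonic CpGs with enough reads all lay in an island.

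Several other groups had medians near that of fission. The unfolded protein and integrated stress response group had 11 of 12 genes higher, with a median of 1.83 points, and CHAC1, a glutathione-degrading enzyme induced by the stress factor ATF4, was at 84.4% and 93.8% over 6 CpGs. The mitochondrial chaperone HSPA9 was at 90.6% and 95.03%, but at a pooled difference of 0.293 points, and the mitochondrial protease LONP1 was at 95.2% and 98.3%. DNA methylation enzymes and readers had 12 of 13 genes higher with a median of 1.73 points. SETD2, which places the gene body mark named above, was at 92.6% and 96.1% over 25 CpGs, of which 19 were higher, and MBD4, a DNA glycosylase, at 91.3% and 94.6%. DNMT3L, the member of this group with the largest difference, was at 29.95% and 35.8%, with a pooled difference of 1.64 points. At 20 or more reads the stress group had 8 of 9 higher with a median of 0.959 points. The DNA methylation group then had 10 of 12 higher with a median of 1.23 points. After centring it had 11 of 13 higher with a median of 1.08 points. The catecholamine group had 6 of 8 higher with a median of 1.93 points, which was 0.911 points after centring and 2.91 points in pooled reads. PNMT was at 67.6% and 75.5% over 5 CpGs, on a mean of 14 and 17.4 reads. This difference of 7.86 points had a counting error of 6.98 points if CpGs are independent. The dopamine transporter SLC6A3 was at 30.8% and 35.9% over 32 CpGs, with a pooled difference of 2.69 points.

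Other groups of mitochondrial and one-carbon metabolism had medians between 0.643 and 1.54 points. Of 18 genes of the respiratory chain and ATP synthase 14 were higher, with a median of 0.893 points, and NDUFA10, a subunit of complex I, was at 80.4% and 89.6% over 7 CpGs of 1 exon stretch. Fusion and cristae genes had 4 of 7 higher with a median of 1.54 points, which was 0.268 points in pooled reads, and the mitofusin MFN2 was at 91.5% and 96.2%. Mitochondrial carriers had 10 of 17 higher with a median of 0.643 points, which became -0.0711 points at 20 or more reads and -0.196 points after centring. One-carbon and methionine cycle genes had 9 of 12 higher with a median of 1.41 points, or 0.204 points at 20 or more reads, and MTHFD1 was lower, at 52.3% and 47.8%.

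Groups with little net difference included HOX genes, olfactory receptors and protocadherins. HOX genes had 15 higher and 15 lower with a median of 0.0895 points, or -0.376 points after centring. The 3 members with the greatest absolute difference were lower: HOXA10 at 30.3% and 24.1%, HOXB4 at 21.3% and 15.2% over 22 CpGs, and HOXB1 at 26.6% and 21.3% over 39 CpGs, of which 29 were lower. Olfactory receptors had 41 higher and 36 lower with a median of 0.174 points, or -0.0924 points after centring. Clustered protocadherins had 33 of 49 higher with a median of 0.393 points, but 15 of 49 and a median of -0.504 points after centring. In each of these 3 groups the sign of the median changed with the centring. In the other 17 groups the median lay between 0.164 points, for ribosomal proteins, and 1.27 points, for antioxidant genes. After centring it was below 0 for adrenergic regulators, at -0.243 points, for sodium and calcium channels, at -0.370 points, and for glutamate and GABA receptors, at -0.0749 points, and in pooled reads for ribosomal proteins, at -0.0608 points. In the cytochrome P450 group 16 of 23 genes were higher, or 12 of 23 in pooled reads and 16 of 21 at 20 or more reads. CYP1A1, an enzyme of xenobiotic metabolism, was at 54.7% and 45.2% over 10 CpGs, of which 9 were lower. CYP2E1 was at 6.72% and 14.4% with all 10 CpGs higher, and CYP1A2, the neighbour of CYP1A1, at 74.8% and 67.6%.

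Single genes were sorted by a rule of size, which asks that a gene hold 5 or more CpGs, differ by 10 or more points on average and have 80% or more of its CpGs in that direction. It was met by 22 genes higher in the Mdivi-1 library (0.276%) and 22 lower (0.276%). Over all 88503 autosomal gene and annotation sets of the table it was met by 0.407% higher and 0.263% lower, so coding exons outside islands stood near the background. Introns outside islands gave 0.0963% and 0.0803%, 3' untranslated regions 1.28% and 0.413%, and coding exons in islands 0.463% and 0.500%, classes that also differ in CpGs per gene.

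**Figure D3:**
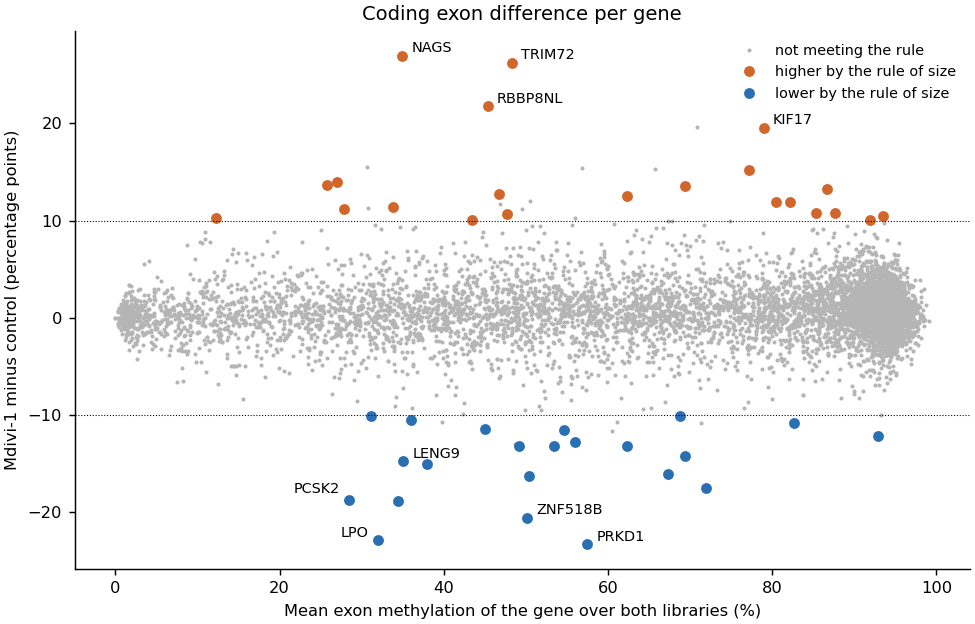
Difference Mdivi-1 minus control in percentage points against the mean exon methylation (%) of both libraries for 7959 genes, grey where the rule of size was not met, orange for the 22 genes higher and blue for the 22 lower by it. Dotted lines mark 10 points; the spread is widest at intermediate levels, from -23.3 (PRKD1) to 27.0 points (NAGS).

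The largest gains over coding exons rested on short runs of CpGs. NAGS makes the cofactor that switches on the mitochondrial urea cycle. Its 8 CpGs, in a shore from 42084993 to 42085117 of chromosome 17 (hg19), averaged 21.5% in the control and 48.4% after Mdivi-1. This difference of 27.0 points had a counting error of 5.32 points if the CpGs are taken as independent. If the same reads covered them all, each wholly methylated or unmethylated, the error was 14.7 points. All 8 were higher, by 10.7 to 45.7 points, on 13 to 39 reads, and at 42085010 methylated reads numbered 3 of 27 in the control and 18 of 35 after Mdivi-1. The adjoining exonic island of NAGS, with 34 CpGs, was at 6.58% and 8.86%. In TRIM72, which reseals damaged muscle membranes, 12 CpGs on chromosome 16 were at 35.2% and 61.4%, with 10 higher, 1 lower and 1 at 0% in both. All but the last lay within 176 bp of the first, in a shelf, and the last lay 4866 bp away. The 36 CpGs of the exonic island of TRIM72 were at 75.4% and 78.4%.

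Other gains rested on 5 to 7 CpGs. RBBP8NL was at 34.5% and 56.3%, a difference of 21.8 points, or 15.4 points in pooled reads. Its counting error was 8.11 points if CpGs are independent, and shared reads would widen it. Its CpGs at 60989003, 60989030 and 60989034 of chromosome 20 (hg19), on 10 to 13 reads, were higher by 49.7, 26.7 and 25 points. Those at 60990648 and 60990650, on 23 to 35 reads, were higher by 6.58 and 0.941 points. KIF17, a kinesin motor of dendritic transport, was at 69.2% and 88.7%, where the first 4 CpGs, within 26 bp, were higher and the last, 18838 bp away, was at 93.3% and 92.6%. CHRNA6, a nicotinic acetylcholine receptor subunit of catecholamine neurons, was at 69.6% and 84.8% with all 5 CpGs higher, 1 of them from 55.0% to 96.3%. EMC10, a subunit of the insertase of the endoplasmic reticulum membrane, was at 80.02% and 93.3% with all 7 CpGs higher. AZU1, an antimicrobial protein of neutrophil granules, was at 20% and 33.9%. LIFR, the receptor of leukaemia inhibitory factor, was at 18.95% and 32.7%, but its reads pooled gave a difference of 7.52 points. TSPYL5 was at 62.6% and 76.2%, HSF2BP, a factor of meiotic recombination, at 40.4% and 53.1%, EFCAB5 at 56.0% and 68.5% and ANKRD37 at 76.2% and 88.2%.

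The largest losses, like the gains, rested on short runs of CpGs. PRKD1, a protein kinase activated by diacylglycerol, was at 69.1% and 45.8% over 7 CpGs in 2 stretches 68.4 kb apart on chromosome 14. The difference of -23.3 points had a counting error of 5.42 points if CpGs are independent, and reads shared within a stretch would widen it. Of the 7 CpGs 6 were lower, and both stretches held lower CpGs. PCSK2, the prohormone convertase of neuroendocrine granules, was at 37.8% and 19.1% over 9 CpGs on chromosome 20, 17207983 to 17208123 (hg19). All 9 were lower, with differences from -1.23 to -32.8 points. At 17208030, the CpG of PCSK2 with the widest difference, 14 of 27 control reads and 8 of 42 Mdivi-1 reads were methylated. The 80 intronic CpGs of PCSK2 averaged 28.9% in the control, with a difference of 2.74 points.

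LENG9 held the most CpGs of the genes that met the rule. Over 37 CpGs in a shelf on chromosome 19, 54974225 to 54974690 (hg19), it was at 42.4% and 27.7%, with 32 CpGs lower and 4 higher. The counting error of its difference was 2.76 points if the CpGs are taken as independent and 16.4 points if the same reads covered them all, each wholly methylated or unmethylated. LPO, the lactoperoxidase of secretions, was at 43.4% and 20.5% over 5 CpGs within 42 bp, all lower. ZNF518B was at 60.5% and 39.9% with all 5 CpGs lower. EDAR, the ectodysplasin receptor of hair and tooth development, was at 58.5% and 42.3% with 9 of 10 CpGs lower. GNA15, a G protein alpha subunit of blood cells, was at 45.4% and 30.4% with all 6 lower. The amino acid transporter SLC7A9 was at 75.4% and 59.3%, POM121L12 at 80.7% and 63.3%, the granzyme GZMM at 76.5% and 62.3% and RNF182 at 68.9% and 55.7%.

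**Figure D4:**
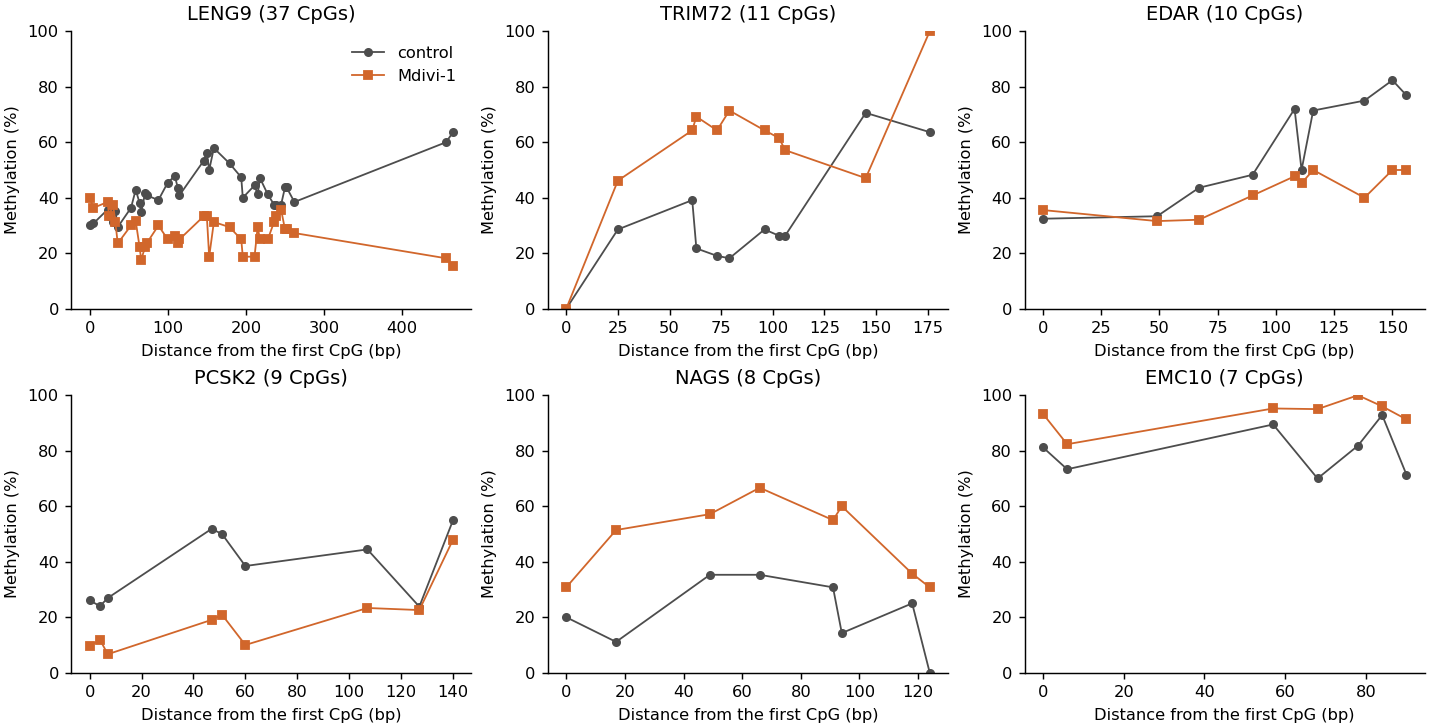
Methylation (%) of each coding exon CpG in the control (grey circles) and Mdivi-1 (orange squares) libraries against distance in bp from the first CpG, for 6 genes among those of largest gain or loss; lines join neighbouring CpGs, and the distant last CpG of TRIM72 is not drawn. The libraries stay apart over most of each run, by 45.7 points at most in NAGS and by -32.8 points at most in PCSK2.

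Genes that met the rule of size held few CpGs and were thinly covered. Of the 44, 36 had 5 to 9 CpGs, as did 35.2% of all genes, and 28 consisted of 1 stretch with no gap over 200 bp. Mean level was between 20 and 80% in 34 of them, and in 34.99% of all genes. Their median coverage was 21.4 reads in the control and 26.6 reads after Mdivi-1, against 39.1 and 48.6 reads over all genes. Differences lay outside the 95% counting interval in 43 of the 44 if CpGs were independent, against 1188 (14.9%) of all genes. That count largely follows from choosing genes by a difference of 10 or more points, so it is no check on them. If reads were wholly shared, differences lay outside it in 0 of the 44 and 0 of all genes. That error takes the same reads to cover all CpGs of a gene, which reads cannot do where stretches lie far apart. Only 1965 of the 7959 genes consisted of 1 stretch, so for most genes it is too wide to be informative. With at least 20 reads required, 16 of the 44 kept 5 CpGs and 13 of these still met the rule. In pooled reads 33 of the 44 did. Of the genes named above with the largest gains and losses, LIFR did not meet it in pooled reads, SLC7A9 did not with the fractions as deposited, and AZU1, RBBP8NL, SLC7A9, LENG9 and RNF182 did not after thinning to equal coverage. Thinned, these genes still differed by more than 10 points but had under 80% of their CpGs in that direction: AZU1 differed by 15.4 points, RBBP8NL by 18.9, SLC7A9 by -16.1, LENG9 by -14.2 and RNF182 by -10.6 points. SLC7A9 differed by -14.5 points with the fractions as deposited.

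The genes that met the rule were chosen for their exon difference, so a smaller difference over their introns follows from the choice. Among the 31 with at least 5 intronic CpGs outside islands, introns differed in the same direction as exons in 12, and in 0 by 10 points or more. The largest absolute intron difference was 6.08 points, in CHRNA6. For the genes lower over exons, introns were higher in 14 of 18 with a median of 1.13 points. For the genes higher over exons, introns were higher in 8 of 13 with a median of 0.398 points. Over all genes with enough intronic CpGs, introns were higher in 69.8%, and the difference from this share was not tested.

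Individual CpGs were tested on their reads with Fisher's exact test, two-sided, adjusted by the Benjamini-Hochberg method over 2523690 CpGs of the table. Such a test compares the reads of 2 libraries, not the treatments. At an adjusted p under 0.05 and a difference of at least 20 points, 0 coding exon CpGs outside islands were higher (0.00%, against 0.000396% of the table) and 1 was lower (0.000577%, against 0.000238%). At an unadjusted p under 0.05, 3051 CpGs were higher (1.76%, against 1.29% of the table) and 1389 lower (0.801%, against 0.735%). After thinning to equal coverage these counts were 1480 and 813.

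The position called lower lay in CD33, a sialic acid receptor of myeloid cells, on chromosome 19 at 51728621 (hg19). It was methylated in 25 of 25 reads in the control, with a 95% Wilson interval of 86.7% to 100%, and in 44 of 90 reads in the Mdivi-1 library (48.9%, interval 38.8% to 59.0%). Fisher's exact test gave a p of 3.61e-07 and an adjusted p of 0.0456. The 4 CpGs in the 95 bp before it were at 2.22% to 6.67% in the control and 3.30% to 5.56% in the Mdivi-1 library, and the nearest of them had 60 and 96 reads. Whether a sequence difference or misplaced reads at this position enter the value was not tested. The call was lost after thinning to equal coverage and when very deep CpGs were left out of the table.

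A run of lower CpGs in BIRC3, an inhibitor of apoptosis that acts in NF-kappaB signalling, held 3 of the 5 smallest p-values among lower CpGs and was chosen after its values were seen. Its first 8 CpGs, on chromosome 11 from 102195289 to 102195544 (hg19), averaged 52.9% in the control and 30.4% after Mdivi-1. All 8 were lower, with differences from -8.39 to -34.8 points, on a mean of 64.5 and 91.0 reads. The next 5 CpGs, ending at 102195891, averaged 65.1% and 66.9% with 4 higher and 1 lower. The last 4, 10.8 kb further on, averaged 47.4% and 34.9% with all 4 lower. The smallest p by Fisher's exact test was 1.17e-05, with an adjusted p of 0.710. Over all 17 CpGs BIRC3 differed by -13.0 points with 13 lower, short of the 80% that the rule of size asks for.

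Among higher CpGs the smallest p-values belonged to CpGs of high coverage or large difference, and none passed adjustment, each having an adjusted p of 1 by Fisher's exact test. In NACAD the CpG at 45121242 of chromosome 7 (hg19) was methylated in 83 of 96 reads in the control and in 111 of 111 in the Mdivi-1 library. Its neighbours at 45121205, 45121223 and 45121260 were also higher, at 90.7% and 97.3%, 91.9% and 97.4%, and 90% and 97.9%. The NACAD CpG at 45121399 was lower, at 93.75% and 90%. In ZMIZ2, a transcriptional coactivator, a CpG was at 81.6% and 97.5%, while the CpG 2 bp further on was at 89.0% and 89.0%. In ZBTB7C a CpG was at 29.0% and 76.3%, with CpGs 20 and 33 bp further on also higher, at 75.0% and 92.9% and at 32.4% and 59.0%. In the same gene, ZBTB7C, CpGs 37 and 30 bp before and 95 bp after were lower, at 40.9% and 33.3%, at 37.9% and 34.2% and at 54.8% and 40%. In CATSPER1, a calcium channel of sperm, a CpG was at 68.6% and 100%, and its neighbours 36 bp before and 174 bp after were at 94.0% and 91.2% and at 90.9% and 91.4%.

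Methylated and unmethylated stretches occurred in the coding exons of the same gene, separated by more than 200 bp of genomic sequence. Consecutive CpGs of a gene at most 200 bp apart formed 12941 blocks of at least 5 CpGs, with a median length of 130 bp. Blocks under 10% numbered 1133, with 42.0% of their CpGs in shores, and blocks over 90% numbered 6291, with 24.4% in shores. Of 2774 genes with at least 2 blocks, 481 (17.3%) had blocks at least 50 points apart in both libraries, and 1351 (48.7%) had all blocks within 10 points. The widest gap was in ARRDC3, an arrestin-like adaptor, between 0.278% in a shore block and 98.8% in a shelf block 6.14 kb away. TONSL, a replication repair factor, had 4 blocks in 3.61 kb, at 90.9%, 98.0%, 80.5% and 0%. GPR108, WDR18 and UNC45A, a myosin chaperone, each had an outermost block below 2% and others above 90% in the control.

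PTCH1, the Hedgehog receptor, differed from these in the position of its low block. Its middle block, 11 CpGs on chromosome 9 from 98221910 to 98222053 (hg19), was at 1.81% and 3.20%, and lay in no shore or shelf. The blocks on either side were at 98.8% and 96.1% in the control, and at 93.5% and 92.5% in the Mdivi-1 library. The largest gap between blocks of PTCH1 was 20.6 kb. In each of these 6 genes the gap was kept in the Mdivi-1 library, at 90.3 points or more.

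**Figure D5:**
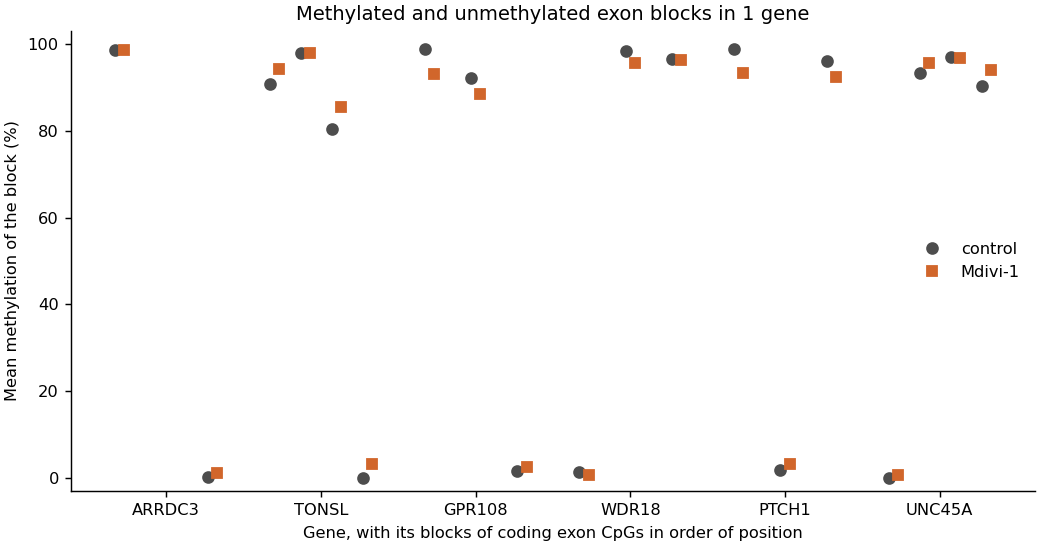
Mean methylation (%) of each block of at least 5 coding exon CpGs, in order of position, for the 6 genes with the widest gap between blocks, in the control (grey circles) and Mdivi-1 (orange squares) libraries. Each gene has 1 block below 4% and others above 80% in both libraries, and in PTCH1 the low block is the middle one.

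The genes of lowest control level with at least 10 exonic CpGs were below 3% in both libraries. They were chosen for a control level near 0, so higher values in the Mdivi-1 library follow in part from the choice. Of the 385 genes whose mean of both libraries was below 5%, 55.6% were higher, with a median difference of 0.124 points. MARCKS, an actin-binding substrate of protein kinase C, was at 0% and 2.39%, and the histone genes H3C3 and H3C10 were at 0.175% and 1.84% and at 0.455% and 1.09%. GRWD1, a histone chaperone, was at 0.294% and 1.33% over 22 shore CpGs, while 9 of its intronic CpGs averaged 58.4% in the control. TRPC4AP was at 0.333% and 0.357%, MISP3 at 0.217% and 1.14% and VPS25, a subunit of the endosomal sorting machinery, at 0.500% and 1.29%. CYP2B6, a hepatic drug-metabolising enzyme, was at 0.394% and 2.93% over 18 CpGs, none in a shore or shelf.

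The genes with the most exonic CpGs differed little between the libraries. NOTCH1, a receptor of cell fate signalling, was at 54.6% and 56.7% over 285 CpGs, but its pooled reads gave a difference of -0.0268 points. DNAH17, an axonemal dynein, was at 72.8% and 73.8% over 243. LAMA5, a laminin chain of basement membranes, was at 90.5% and 91.7% over 224 CpGs. ABCA2, a lipid transporter, was lower in the Mdivi-1 library, at 91.4% and 89.6% over 254 CpGs, a counting error of 0.534 points if CpGs are independent, and a pooled difference of -0.625 points.

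Positions and genes at the edge of the conditions were close in level to those just inside. The 3526 CpGs whose lower coverage was exactly 10 reads were at 67.9% and 68.5%, and the 3229 with 9 reads, which were left out, at 69.3% and 69.9%. The 735 genes with 5 CpGs were at 65.0% and 65.8%, and the 897 with 4 CpGs, which were not summarised, at 64.0% and 64.7%.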

How the data were processed

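DNA of 2 SH-SY5Y libraries, 1 given DMSO and 1 given Mdivi-1, was captured with the SureSelectXT Methyl-Seq kit and sequenced on a NovaSeq instrument, per the labels' protocols. The submitters' processing notes name BSMAP, with no version, and hg19. The authors deposited, per position, a methylated fraction in each library, a coverage that is treated here as an estimated count because a few values are not whole, and other annotation columns for gene, promoter and island. The control fractions deposited by the authors are whole reads at a coverage multiplied by 1.23, a rescaling read from the values and not given in the sources used here. Whole reads were recovered by reversing it, and 10798 positions (0.389%) without them were left out, 537 of them exonic positions meeting the conditions above.

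A level is the mean percent over CpGs, and a difference is the Mdivi-1 level less the control level. Counting errors come from binomial variances, for independent CpGs or for fully shared reads. With 1 library per group no test over genes was possible, and Fisher's exact tests compare reads of 2 libraries. The CpGs carry 1 strand almost throughout: 171892 were on the minus and 1475 on the plus strand of the table. An entry of several symbols in the gene column counted as 1 gene, which held for 38 entries with at least 5 CpGs. The rule for named genes took the 12 largest gains and 12 largest losses meeting the rule of size, up to 3 members of each group with the largest absolute difference, DNM1L, the 8 genes of lowest control level with at least 10 CpGs, the 6 of widest gap between blocks, the 5 with the most CpGs and up to 5 called CpGs in each direction. Some genes so chosen are not reported here. CpGs of smallest p that were not called, and further group members, were named after their values were seen. The positions, genes, groups and rules were chosen with earlier results of these data known. The alternatives were at least 20 reads, pooled reads, the fractions as deposited, removal of very deep CpGs, of shores and shelves or of shared entries, other sizes of difference and CpG numbers, centring by level, thinning to equal coverage and, added after seeing the data, removal of the plus strand. Scripts were tested on simulated data. The tools were Matplotlib 3.10.9, Numba 0.67.0, SciPy 1.17.1, pandas 2.3.3 and NumPy 2.4.6 under Python 3.11.15.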

Additional observations from a re-analysis of the deposited data

How the results depend on the processing

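No paired analysis was possible because each group holds 1 library, and for the same reason no replicate could be left out. The level difference over coding exon CpGs, 0.650 points, was 0.563 points in pooled reads and 0.692 points outside shores and shelves. The gap between exons and introns, 13.15 points, was 13.03 points at 20 or more reads, 13.08 points in pooled reads and 7.63 points outside shores and shelves. The 22 genes higher and 22 lower by the rule of size became 11 and 12 at 20 or more reads, 13 and 12 outside shores and shelves, 2 and 6 with at least 10 CpGs, and 5 and 9 at 15 points or more, all of which leave fewer genes able to pass. They were 30 and 22 after thinning, which shared 33 of its 52 genes with the 44, and 30 and 21 with the fractions as deposited, 16 and 25 after centring by level, and 31 and 27 with no minimum share of CpGs. The 1 CpG called lower became 0 at an adjusted p under 0.01, 0 after thinning and 0 without very deep CpGs, while the count of higher CpGs stayed at 0. In pooled reads the counts were 27 and 23, and with the plus strand left out 21 and 22. More genes were higher than lower after thinning, as deposited, in pooled reads, with no minimum share and outside shores and shelves. Fewer were higher than lower after centring, at 20 or more reads, with at least 10 CpGs, at 15 points or more and without the plus strand. The level difference and the exon gap stayed above 0 under the alternatives run on them, which did not include centring. Depth limits single genes: at 10 to 20 reads a CpG's own level is coarse, and reads shared between neighbouring CpGs widen the errors of short runs by an amount the deposited table does not give.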
